A study of Bos taurus with 6 samples.

Results

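In all, 13 probes for 10 genes of the NF-kB pathway and its cytokines were followed here: the regulators NFKBIA, NFKBIZ, NFKB1, RELB and TNFAIP3, the secreted factors CXCL2, IL1A, LIF and CCL2, and the cytokine signalling inhibitor SOCS3. They were chosen by their symbol in the platform annotation, and they are 13 of 43794 probes and 10 of 15216 named genes on the array. CXCL2 had 4 probes and each other gene had 1. All symbols matched as current names, with no synonym needed.

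The FGF8 group is bovine (Holstein) granulosa cells given FGF8 at 10 ng/ml on day 5 of culture and harvested at 2 h. The control group is the same kind of cells without FGF8 at 0 h, so FGF8 and 2 h more in the dish cannot be told apart. Cells of both groups came from follicles of 2 to 6 mm and had grown without serum, with FSH and insulin at 10 ng/ml each. Each of 3 replicates was hybridised on 2 two-colour arrays, once with its FGF8 RNA in Cy5 (the Cy5 orientation) and once with that RNA in Cy3 (the Cy3 orientation). The labels do not tie the replicates to separate animals or cultures, so p-values measure only the spread between these 3 samples, which may be technical.

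NF-kB factors are dimers of Rel family proteins that IkB proteins hold in the cytoplasm. When a cytokine or stress signal makes the cell destroy its IkB, the dimers enter the nucleus and switch on chemokines, cytokines and their own inhibitors, among them NFKBIA and TNFAIP3, which closes a feedback loop. In the follicle, such cytokines are known from the inflammation-like events around ovulation. FGF8 signals through FGF receptors, mainly to the ERK kinases.

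Most of these transcripts were measurable, and none passed the test for a difference. Each ratio is the authors' deposited log2 value, FGF8-treated over control RNA, with the 2 arrays of a replicate averaged, given as mean ± SD over 3 replicates. IL1A, CCL2 and the brightest CXCL2 probe, all for secreted proteins, averaged below 0 in every replicate, while NFKBIZ averaged above 0 in every replicate. NFKB1 differed between replicates by more than any other member, and NFKBIA and RELB stayed near 0. With limma and Benjamini-Hochberg adjustment over 27210 kept probes, 0 of the 10 kept member probes passed at 0.05, where 1 of all kept probes (0.00368%) and 0 of 11190 named genes (0%) did. The smallest adjusted p of a member probe was 0.856. At an unadjusted p under 0.05 there were 4 of the 10 kept member probes, where 4.94% of all kept probes lay. Among these 4 were the brightest and another probe of the same gene, CXCL2. By gene, each represented by its brightest kept probe, 3 of 7 members had an unadjusted p under 0.05, where 5.53% of all genes did. All 3 were lower (2.43% of genes) and 0 higher (3.1% of genes). The members were chosen with earlier results of these data known, so this share is a description. The mean was below 0 for 5 of 7 members and for 49% of genes, and at least 1.5-fold from 1 for 2 members and 1.79% of genes. No member had an SD of at least 1, which 1.96% of genes had.

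Whether a probe saw its transcript was judged against the negative control spots. A probe counted as above background on an array when its median intensity passed the 95th percentile of 153 negative control spots in that channel, which lay at 94 to 166.8 for treated RNA and at 119 to 173.2 for control RNA. Of the 13 probes, 9 passed on all 6 arrays in both RNAs: those of NFKBIA, NFKBIZ, NFKB1, RELB and IL1A and the 4 of CXCL2. CCL2, a chemokine that attracts monocytes, passed on 5 arrays in treated RNA and on 6 in control RNA, at intensities of 124 to 206 in treated and 173 to 234 in control RNA. TNFAIP3, a ubiquitin-editing enzyme that shuts NF-kB signalling down, passed on 2 arrays in treated RNA and 0 in control RNA, at 82 to 174 in treated and 105 to 153 in control RNA. LIF, a cytokine of the interleukin-6 family, and SOCS3, which blocks JAK-STAT signalling, each passed on 1 array in treated RNA and 1 in control RNA. LIF spanned 80 to 153 in treated and 117 to 173 in control RNA, and SOCS3 spanned 72 to 159 in treated and 109 to 163 in control RNA. These 3 genes were therefore not tested. Their deposited ratios lay between -0.32 and 0.42 over the 6 arrays. Most of these come from spots under the limit: both RNAs passed together on 1 array for LIF and 1 for SOCS3, in replicate 3, and on 0 for TNFAIP3.

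**Figure D1:**
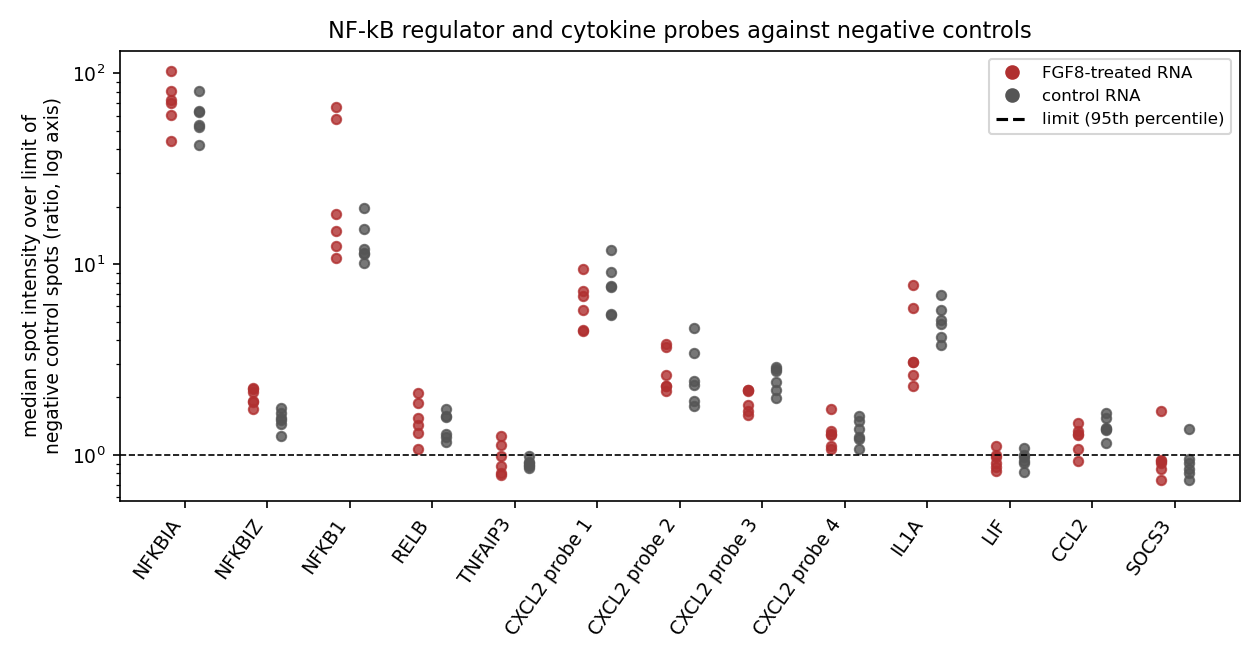
Median spot intensity of each probe over the limit set by the negative control spots of the same array and channel (log axis), for FGF8-treated RNA (red, left) and control RNA (grey, right), with 6 arrays each; CXCL2 probes are numbered from the brightest. Of these, 9 probes lie above the limit on every array in both RNAs, CCL2 misses it on 1 array in treated RNA, and TNFAIP3, LIF and SOCS3 lie mostly at or under it.

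Among the regulators, NFKBIA codes for the classical IkB protein that the cell makes when NF-kB is active. Its probe was bright, at 7373 to 9981 in treated and 7243 to 9630 in control RNA. Replicate values were -0.36, 0.28 and -0.091. The mean was -0.058 ± 0.32 (n = 3, limma adjusted p = 0.964), with 3 arrays above 0 and 3 below. The 95% interval of -0.45 to 0.33 on the log2 scale leaves room for a moderate difference in either direction. The sign was positive, at 0.15, in the Cy5 orientation, at 0.094 without replicate 1 and at 0.12 when scanner values were centred on the array median.

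NFKBIZ is an atypical IkB protein of the nucleus that helps a subset of NF-kB targets, in the mouse Il6 among them. Its array values were 0.37 and 0.50 in replicate 1, 0.43 and -0.033 in replicate 2, and 0.20 and 0.40 in replicate 3, the Cy5 orientation first. So it was higher in treated cells on 5 of 6 arrays and in all 3 replicates, which 13.6% of named genes were. The mean was 0.31 ± 0.12 (1.24-fold higher, n = 3), and its SD was among the lower 15.1% of genes. It did not pass (limma adjusted p = 0.856), and the 95% interval ran from -0.0018 to 0.63. With mean spot intensities from the scanner the mean was 0.20. The probe was dim, at 177 to 376 in treated and 150 to 276 in control RNA.

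NFKB1 codes for the precursor of a DNA-binding NF-kB subunit, and is itself an NF-kB target. The spot intensities were 1427 and 1786 in treated RNA against 1691 and 1702 in control RNA in replicate 1, and 2344 and 2279 against 1948 and 1506 in replicate 2. In replicate 3 they were 5612 and 6278 in treated RNA against 2251 and 2332 in control RNA. Control intensities thus spanned 1506 to 2332, and the treated RNA of replicate 3 lay above all of them and above the other treated values. All spot intensities given here are raw medians, before background subtraction and dye normalization, so their order can differ from the sign of the ratio. The ratios were -0.16 and -0.19 in replicate 1, 0.46 and 0.38 in replicate 2, and 1.28 and 1.27 in replicate 3. The dye-swapped arrays of a replicate therefore differed by at most 0.087, while the replicates spanned 1.45. The mean was 0.51 ± 0.73 (1.42-fold higher, n = 3, limma adjusted p = 0.856), and this SD exceeded those of 95.2% of genes. Replicates 1 and 3 both weighed on this mean: it was 0.12 without replicate 3 and 0.85 without replicate 1.

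RELB, the Rel protein of the alternative NF-kB pathway, had replicate values of -0.21, -0.0017 and 0.19. The mean was -0.0059 ± 0.20 (n = 3, limma adjusted p = 0.996), with a 95% interval of -0.34 to 0.33 and 3 arrays on each side of 0. Its sign turned to positive without replicate 1 (0.095), in the Cy5 orientation (0.040) and with mean spot intensities (0.051). Its intensities were 152 to 239 in treated and 147 to 292 in control RNA.

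**Figure D2:**
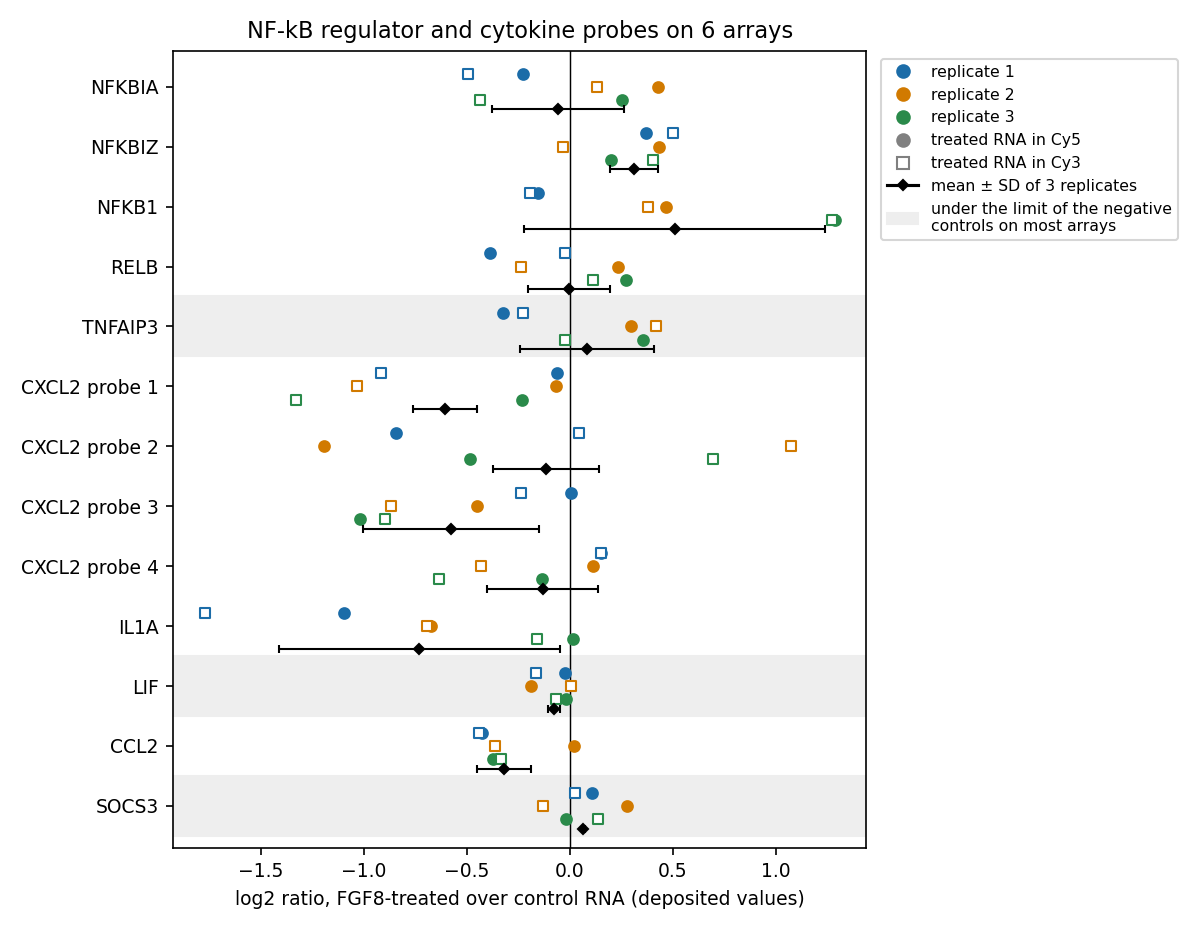
Deposited log2 ratios of FGF8-treated over control RNA for the 13 probes on 6 arrays, coloured by replicate, with filled circles for the Cy5 orientation, open squares for the Cy3 orientation, and black diamonds with bars for the mean ± SD of 3 replicates. IL1A, CXCL2 probes 1 and 3 and CCL2 average below 0, at -0.73, -0.61, -0.58 and -0.32, and NFKB1 spreads from -0.19 to 1.28.

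Among the secreted factors, IL1A is the alpha form of interleukin-1, which activates NF-kB through the interleukin-1 receptor. Its intensities were 356 and 383 in treated RNA against 852 and 1026 in control RNA in replicate 1, and 335 and 471 against 656 and 612 in replicate 2. In replicate 3 they were 573 and 726 in treated RNA against 616 and 687 in control RNA. The treated values lay under the control values in replicates 1 and 2, and the groups overlapped in replicate 3. These are raw intensities, and in replicate 3 their order was opposite to the sign of the ratio on both arrays. The ratios were -1.09 and -1.77 in replicate 1, -0.67 and -0.70 in replicate 2, and 0.014 and -0.16 in replicate 3. The mean of -0.73 ± 0.68 (1.66-fold lower, n = 3, limma adjusted p = 0.856) was the 20th lowest of 11190 genes. The SD exceeded those of 94.1% of genes. Without replicate 1 the mean was -0.38, and without replicate 3 it was -1.06; with median centring of scanner values it was -0.48.

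IL1A and NFKB1 were the 2 of 7 measured members whose replicates spanned more than every gap between dye-swapped arrays, which 46.4% of genes did. For both, replicate 1 was lowest and replicate 3 highest, as also for RELB (3 of 7 members, and 22.6% of genes). Among the 219 genes with an SD of at least 1, which no member reached, 176 had this order. Over all kept probes, dye-swapped arrays correlated at 0.474 in replicate 1, -0.107 in replicate 2 and 0.450 in replicate 3, and replicates correlated with each other at -0.00985 to 0.110. Probes are not independent replicates, so these correlations only describe the arrays.

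CXCL2 is a chemokine that attracts neutrophils, and its 4 probes did not give the same answer. They are numbered here from the brightest. Probe 1, at 677 to 917 in treated and 914 to 1412 in control RNA, was lower in treated cells on all 6 arrays, as 2.51% of genes were. By the deposited ratios it was 1 member of 7 with the same sign on every array, where 6.01% of genes had. From scanner values that count was 1 with normexp background correction and loess, 3 with median centring and 4 with mean spot intensities. By the deposited ratios 0 members were higher on all 6, where 3.49% of genes were. In the Cy5 orientation its ratios were -0.061, -0.069 and -0.23 in replicates 1, 2 and 3, and in the Cy3 orientation they were -0.92, -1.03 and -1.33. The mean was -0.61 ± 0.15 (1.52-fold lower, n = 3, limma adjusted p = 0.856, unadjusted 95% interval -0.93 to -0.28). Its size turned on the dye: it averaged -0.12 in the Cy5 orientation and -1.09 in the Cy3 orientation.

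CXCL2 probe 2 showed the opposite dependence. In the Cy5 orientation its ratios were -0.84, -1.19 and -0.48, and in the Cy3 orientation they were 0.046, 1.07 and 0.70. Its mean was -0.12 ± 0.26 (n = 3). The Cy5 over Cy3 effect, tested on the same 3 replicates with the treatment cancelled, was 0.49 for probe 1 (limma adjusted p = 0.00312) and -0.72 for probe 2 (limma adjusted p = 0.000611). A dye effect was called for 2 of 10 kept member probes, these, and for 8.24% of all kept probes.

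CXCL2 probe 3 had no called dye effect (0.090, limma adjusted p = 0.622) and gave a mean near that of probe 1. Its intensities were 253 and 367 in treated RNA against 332 and 362 in control RNA in replicate 1, 217 and 248 against 378 and 354 in replicate 2, and 177 and 203 against 405 and 342 in replicate 3. Its ratios were 0.0055 and -0.24 in replicate 1, -0.45 and -0.87 in replicate 2, and -1.02 and -0.90 in replicate 3. Replicates 2 and 3 were thus lower in treated cells in both orientations, and replicate 1 lay nearer to 0. The mean was -0.58 ± 0.43 (1.49-fold lower, n = 3, limma adjusted p = 0.856). Probe 4 averaged -0.13 ± 0.27 (n = 3, limma adjusted p = 0.899), with replicate values of 0.15, -0.16 and -0.38. All 4 probes averaged below 0, and the mean over them was -0.36. CXCL2 belongs to a family of near-identical chemokine genes, of which CXCL1 and CXCL3 have no probe of that name here, so which family members each probe reads is uncertain.

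CCL2 had ratios of -0.42 and -0.44 in replicate 1, 0.018 and -0.37 in replicate 2, and -0.37 and -0.33 in replicate 3. It was lower in treated cells on 5 of 6 arrays. Its mean was -0.32 ± 0.13 (1.25-fold lower, n = 3, limma adjusted p = 0.856, unadjusted 95% interval -0.64 to -0.0027). With IL1A and CXCL2 by its brightest probe, it was 1 of 3 members below 0 in every replicate, which 12.7% of genes were. With mean spot intensities from the scanner it was -0.10.

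**Figure D3:**
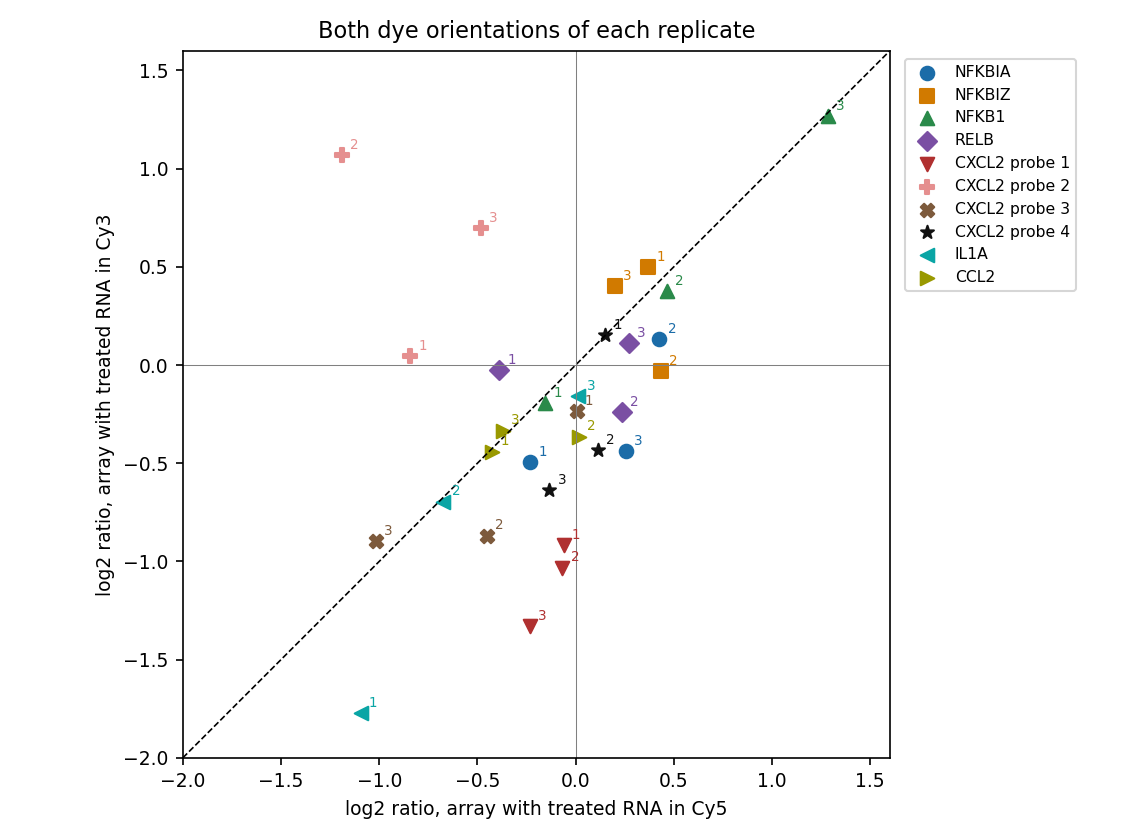
Log2 ratio of FGF8-treated over control RNA in the Cy5 orientation (x axis) and in the Cy3 orientation (y axis) of the same replicate, for the 10 probes above background, with the replicate number beside each point and the dashed line where both are equal. NFKB1 lies along the line from -0.16 to 1.28, CXCL2 probe 1 lies under it and CXCL2 probe 2 above it in all 3 replicates.

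The cells carried granulosa markers. Of 12 with a probe, 9 were above background on all 6 arrays in treated RNA and 9 in control RNA, with INHBA, an inhibin subunit, at 42348 to 59488 in treated and 32231 to 56752 in control RNA. FOXL2, a defining granulosa factor, passed on 1 array in treated RNA and 1 in control RNA. Of 12 theca and stroma markers, 7 passed on all 6 arrays in treated and 8 in control RNA, and several were bright. PDGFRA, a growth factor receptor of stromal cells, read 16619 to 26338 in treated and 13680 to 25367 in control RNA, and the collagen gene COL3A1 read 15296 to 21481 in treated and 11740 to 25047 in control RNA. The summed intensity above the limit was 57743 to 68689 in treated and 50131 to 65591.2 in control RNA for theca and stroma markers. For granulosa markers it was 68072 to 98771.8 in treated and 60091.2 to 94313 in control RNA. The theca enzyme CYP17A1 passed on 1 array in treated and 3 in control RNA. The part of stromal cells in the members' values was not tested. Of 8 endothelial markers, 4 passed on all arrays in treated and 2 in control RNA, and PECAM1 on 0 in either.

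Leukocytes also make these chemokines. Of 19 leukocyte markers, 6 were above background on all 6 arrays in treated and 6 in control RNA, and ITGAM on 0 in either. Their summed intensity above the limit was 1520 to 3376 in treated and 1683 to 3675 in control RNA. Over the 10 kept genes the median ratio was -0.041, with 3 means above 0 and 7 below. Of these, CD3E and CD8A passed on 3 arrays in treated and 4 in control RNA. They were thus kept through control RNA alone, the group where they averaged higher, so the filter could tilt this split. By replicate the medians were -0.24, 0.016 and -0.0067. The lowest means were those of CD68, of macrophages, with replicate values of -0.29, -0.0026 and -0.86, and of the pan-leukocyte marker PTPRC, with -0.24, 0.092 and -0.66. The highest were those of AIF1, of macrophages, with 0.47, 0.035 and 0.032, and of the adaptor TYROBP, with -0.45, -0.24 and 0.85. The part of leukocytes in the CXCL2, IL1A and CCL2 values was not tested. In bulk RNA, fewer cells of a type and less RNA per cell cannot be told apart.

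Other genes of the pathway, taken from 5 lists, had no called member either. In every list 0 kept genes passed at an adjusted p under 0.05 in limma, and 0 had an unadjusted p under 0.05. Among all named genes kept, 0% and 5.53% did. Over all 11190 genes the median was 0.0053, with 5705 means above 0 and 5485 below. Of the other NF-kB subunits and IkB proteins, 6 of 7 were kept, with a median of -0.060, 1 mean above 0 and 5 below. NFKBIE, at -0.11, passed on 2 arrays in treated and 4 in control RNA. It was kept through control RNA alone, where it averaged higher, so the filter could tilt this split and median. RELA, the main activating subunit, was highest at 0.28 ± 0.40, and NFKB2, the partner precursor of RELB, lowest at -0.27 ± 0.31 (n = 3 each).

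The kinases, adaptors and ubiquitin enzymes that carry signals to NF-kB had a median of 0.13 over 27 kept of 36 genes, with 20 means above 0 and 7 below. RNF31, a ligase that builds linear ubiquitin chains, was highest, with replicate values of -0.34, 0.27 and 1.83. TRAF2, an adaptor of TNF receptors, was lowest at -0.16 ± 0.39 (n = 3). TAB2 and SHARPIN, below 0, were kept through control RNA alone, and MALT1, above 0, through treated RNA alone.

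Receptors had a median of 0.0093 over 12 kept of 18 genes, with 6 means on each side of 0. IL1R1, the signalling receptor of IL1A, stood at -0.060 ± 0.049, its partner IL1RAP at 0.039 ± 0.093 and the decoy receptor IL1R2 at -0.23 ± 0.26 (n = 3 each). IL6ST, the shared receptor chain for LIF, stood at 0.11 ± 0.14, and OSMR was highest at 0.29 ± 0.22 and above 0 on all 6 arrays (n = 3 each). TLR3 was lowest, at -0.27 ± 0.63 (n = 3). LIFR and CCR2, the receptors of LIF and CCL2, had no kept probe, nor had CXCR1, and CXCR2 had no probe of that name.

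Other cytokines, chemokines and adhesion targets had a median of -0.047 over 17 kept of 34 genes, with 5 means above 0 and 12 below. IL1B, the sister gene of IL1A, averaged -0.25 ± 0.17 and was below 0 on 5 of 6 arrays, and the chemokine CXCL5 averaged -0.047 ± 0.38 (n = 3 each). CXCL10, an interferon-induced chemokine, was lowest on average and had replicate values of -3.10, -1.26 and 2.26, with dye-swapped arrays on the same side of 0 in every replicate. VCAM1, an adhesion molecule, was highest at 0.25 ± 0.15 (n = 3). It passed the background limit on 5 arrays in treated RNA and on 3 in control RNA. It was thus kept through treated RNA alone, the group where it averaged higher. In the LIF, JAK-STAT and SOCS list the median was 0.016 over 18 kept of 24 genes, with 10 means above 0 and 8 below. Among the SOCS genes, SOCS2 stood at 0.34 ± 0.29 and SOCS1, lowest of the list, at -0.42 ± 0.60 (n = 3 each). MYC was highest, with replicate values of -0.20, 0.33 and 1.10. SOCS6 and STAT5B, above 0 on average, were kept through treated RNA alone.

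**Figure D4:**
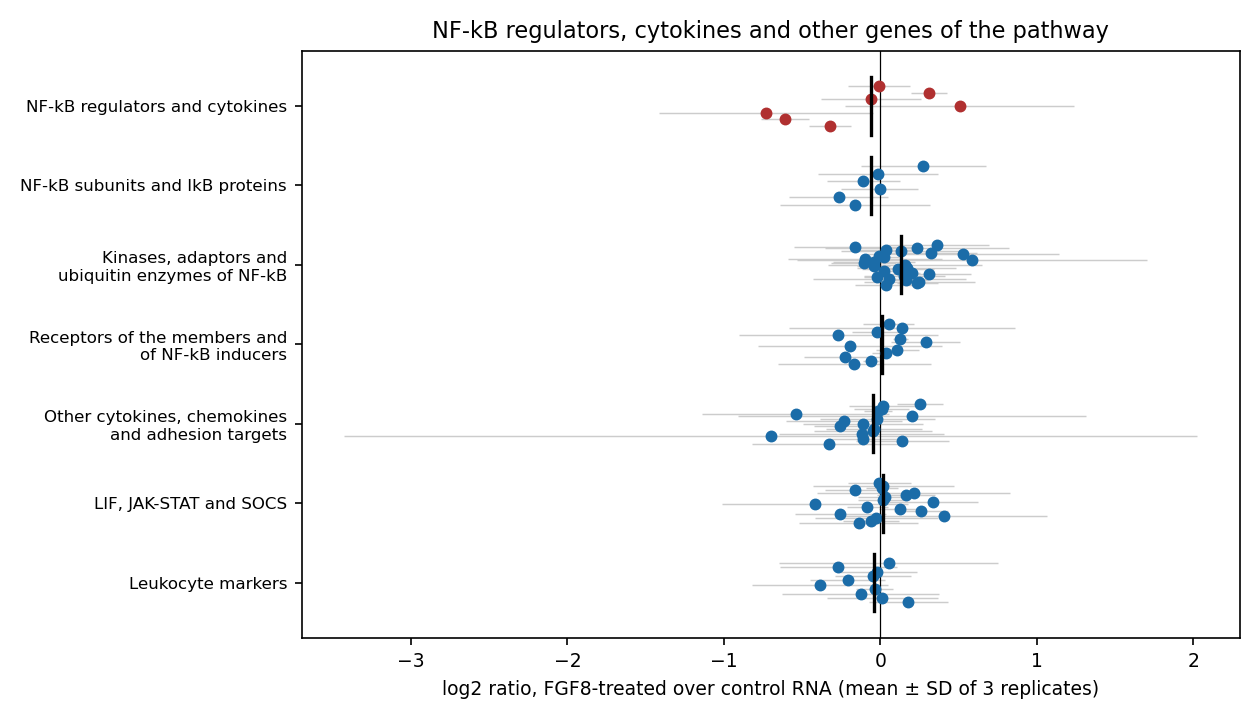
Mean log2 ratio of FGF8-treated over control RNA for each kept gene (points, with grey bars for the SD of 3 replicates) in the 7 measured members (red), 5 lists of other pathway genes and the leukocyte markers (blue), with the median of each list as a black bar. Medians lie between -0.060 and 0.13, and the widest bar is that of CXCL10.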

How the data were processed

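Transcripts were measured on 6 two-colour arrays, 2 for each of 3 replicates. Per the labels' protocols, 2 rounds of T7 amplification preceded the coupling of the dyes Cy3 and Cy5. The deposited table holds a log2 ratio per probe and array. Set against the scanner intensities, which the authors deposited without background correction per the file headers, it matched loess-normalized median foreground minus median background (r = 1.00, slopes 1.00, treated over control on every array); no source states the step. Medians per array were 0.0025, 0.0030, 0.0018, -0.00085, 0.0063 and 0.0067.

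The deposited ratios were used. A spot that its file marks with ignored cells, on any array, removed its probe (143 in all), and a probe was kept when it passed the 95th percentile of the negative controls in treated RNA, or in control RNA, on at least 4 of 6 arrays (27210 of 43794). Of all probes, 21790 have 1 annotated symbol, 22004 have none and no probe has several; 1524 symbols were updated through bovine RefSeq synonyms and 241 matched none. A gene's brightest kept probe represents it, and other probes are given beside it for CXCL2.

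A two-sided limma 3.58.1 fit (lmFit, eBayes, R 4.3.3) set the 3 replicate means against 0. Treated and control RNA of a replicate number share each array, so the ratios are paired by design. The fit was tested on simulated data. A filter that took either RNA array by array was tried first and kept as an alternative, so the filter was settled after a first result was seen. The genes named from other lists have the highest or lowest mean of their list or are receptors or relatives of the members. Members and lists were chosen with earlier results of these data known. The number of arrays limits the precision. By the deposited array names, replicate 1 lay on its own slides and replicates 2 and 3 shared 1, which no label states. Each ratio compares RNAs on the same array, and so within a slide. A difference of replicate 1 from the other replicates cannot be told apart from one between slides. The alternatives tried were scanner values with normexp (offset 50), mean intensities, median centring, other filters and the mean of a gene's probes. Further ones were left-out replicates, arrays as replicates with and without blocks, single dye orientations and an intensity trend. With normexp and loess on median intensities, ratios correlated with the deposited ones at 0.757 on the replicate 1 array in the Cy3 orientation. On the other arrays this correlation was 0.991 to 0.997.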

Additional observations from a re-analysis of the deposited data

Results flagged for a closer look

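CXCL2 probe 1, the brightest of the gene, differed between the dye orientations: its ratio of Cy5 over Cy3 was 0.49 on the log2 scale with the treatment cancelled (limma adjusted p = 0.00312), and treated over control RNA averaged -0.12 in the Cy5 orientation and -1.09 in the Cy3 orientation. CXCL2 probe 2 differed the other way, at -0.72 (limma adjusted p = 0.000611), with averages of -0.84 in the Cy5 orientation and 0.60 in the Cy3 orientation. Averaging both orientations cancels a dye effect that is equal on both arrays.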

How the results depend on the processing

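No member probe was called under any of the 16 alternatives (0 in each). Over all kept probes, the count of 1 became 0 with scanner values (normexp and loess, median centring, or mean intensities), 10 in the Cy5 orientation and 0 to 1 with a replicate left out. It became 15 with 6 arrays and the replicate block, 19 with 6 arrays unaveraged and 16 with slide as a random block, all of which take their degrees of freedom from arrays. Of 7 measured members, 1 had the same sign on every array, and also 1 with normexp and loess on scanner values. The count was 3 with median centring and 4 with mean intensities. In the Cy5 and in the Cy3 orientation it was 2 and 3, and with a replicate left out 2 to 3. Fewer arrays make the same sign on each easier to meet. Signs turned only for NFKBIA (-0.23 to 0.094 with a replicate left out, 0.12 with median centring, 0.15 in the Cy5 orientation) and RELB (-0.10 to 0.095 with a replicate left out, 0.051 with mean intensities, 0.040 in the Cy5 orientation), and the cause was not tested. CXCL2, IL1A, CCL2, NFKB1 and NFKBIZ kept their sign throughout, over -1.09 to -0.12, -1.06 to -0.38, -0.39 to -0.10, 0.12 to 0.85 and 0.20 to 0.37. The other filters, the replicate block, unaveraged arrays and the intensity trend left every mean unchanged, so they could not turn a sign. A left-out replicate could not turn CXCL2, IL1A, CCL2 or NFKBIZ, whose 3 replicate values share a sign. A single orientation could not turn CXCL2 probe 1, below 0 on all 6 arrays. All these signs are those of a gene's brightest kept probe, or in 1 alternative of the mean of its kept probes. By single probes CXCL2 did turn: probe 2 averaged -0.84 in the Cy5 and 0.60 in the Cy3 orientation. Probe 4 averaged 0.043 and -0.31, while probe 3 stayed below 0, at -0.49 and -0.67. CCL2 was not kept, and so has no value, when both RNAs had to pass on all 6 arrays. The replicate block changed no member's call. A filter counted array by array was added after the data were seen. TNFAIP3, LIF and SOCS3 were limited by signal over background.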

Other observations

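An SD of at least 1 over the 3 replicates was found for 219 of 11190 genes, among them CXCL10 but none of the 10 genes described above. Gene ratios spread more in replicates 1 and 3 (SD over genes 0.410 and 0.481) than in replicate 2 (0.228). By size of the SD, looked up after the values had been seen, GBP5, a guanylate-binding protein, ranked 1 with replicate values of -4.34, -0.25 and 2.84. BUD23 ranked 2 with -0.90, 0.23 and 4.43, and CXCL10 ranked 4 with -3.10, -1.26 and 2.26.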
